A study of Mus musculus with 26 samples.

Results

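A set of 10 genes that mark the alveolar type 2 (AT2) cell of the lung was followed in the murine EML4-ALK lung cancer lines EA1, EA2 and EA3 with and without alectinib. They are Nkx2-1, Sftpc, Sftpb, Sftpa1, Sftpd, Lamp3, Napsa, Cebpa, Lpcat1 and Slc34a2, and were chosen by symbol. All 10 were found among the 55391 genes of the counts table. Of these members, 8 failed the filter on low counts, and only Cebpa and Lpcat1 were among the 14264 genes tested.

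EML4-ALK is a fusion kinase, and alectinib blocks the ALK kinase. Tumors were induced in C57BL/6 mice by Cas9 and guide RNAs against Eml4 and Alk, delivered to the airway with an adenovirus, and each line was grown from such a tumor. Cells received 100 nM alectinib or 0.1% DMSO in serum-containing medium for 1, 2, 3 or 5 days, with 1 library for each combination of line, treatment and day. The 4 days therefore served as replicates of a line and treatment, no library was repeated within a day, and p-values measure the spread between days. Totals of the 24 libraries lay between 5780062 and 11732401 counts (median 9252878), so that 3 counts, taken as the floor of detection, correspond to between 0.251 and 0.530 CPM (counts scaled to library size with edgeR's TMM factors). Another 2 libraries are labelled EA3 day 7, but correlated with EA2 libraries at 0.942 to 0.988 and with EA3 libraries at 0.852 to 0.889 (Pearson, log2 CPM across genes). They were left out of the values below, except where all 26 libraries are named or their own counts are given.

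AT2 cells make and recycle pulmonary surfactant, a film of phospholipid and protein that keeps the alveoli open. NKX2-1 is the homeodomain factor that sets lung epithelial identity and drives transcription of the surfactant protein genes, together with factors of the C/EBP and FOX families. Surfactant proteins B and C are small hydrophobic peptides that spread the lipid film, whereas surfactant proteins A and D are collectins that bind microbes. Napsin A cleaves the surfactant B and C precursors, LAMP3 lies in the membrane of late endosomal compartments such as lamellar bodies, LPCAT1 remodels phosphatidylcholine into its saturated surfactant form, and SLC34A2 takes phosphate back from the alveolar lining fluid.

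RefSeq promoter windows (GRCm38.p6, the assembly behind mm10) matched 7 of the 10 members. Those of Sftpb, a surfactant gene with at most 6 counts in any library, and Slc34a2, the member with the highest single rise, are shown upstream of the start, on the strand of the gene, up to the first annotated exon base. Capitals mark matches on either strand to TCAAG, the core word of NKX2-1, to TGTTTNC, a FOX word, or to TTNNGNAA, a C/EBP word, none of which overlap here.
Sftpb, chr6:72304460-72304609, plus strand: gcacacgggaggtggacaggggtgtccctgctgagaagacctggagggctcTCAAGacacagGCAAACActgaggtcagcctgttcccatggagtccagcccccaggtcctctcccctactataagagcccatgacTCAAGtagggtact
Slc34a2, chr5:53049203-53049351, plus strand: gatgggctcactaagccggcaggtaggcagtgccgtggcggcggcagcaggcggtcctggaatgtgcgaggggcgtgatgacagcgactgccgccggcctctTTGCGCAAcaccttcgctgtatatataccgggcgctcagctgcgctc

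Over the 250 bases before the start, Sftpb holds TCAAG at positions -99 and -14, the FOX word at -88 and, outside the stretch shown, the C/EBP word at -190, counted to the first base of each match. Slc34a2 holds the C/EBP word at -48 and neither of the others. This Slc34a2 start lies inside the gene as GENCODE draws it, from 53038081 to 53071664 on chromosome 5, because longer transcripts start upstream. Over the same length, TCAAG was found in 35.9% of 32851 promoters, TTNNGNAA in 36.8% and TGTTTNC in 17.8%, so that a match is common. It is a description of the letters and not a binding site.

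Transcripts of most AT2 identity genes were at the floor in EA1 and EA2 with either treatment. At most 3 counts in each of the 8 libraries of a line were found for 7 of the 10 members in EA1, for 6 in EA2 and for 3 in EA3. The EA3 count rested on the day 5 libraries. With day 5 left out, 5 of the 10 were that low in EA3, with Nkx2-1 and Lamp3 added, and 7 in each of EA1 and EA2. In bulk cultures, fewer cells that express a gene and less RNA per cell cannot be told apart. Among protein-coding genes as a whole, 38.8% were that low in EA1, 40.2% in EA2 and 36.5% in EA3. Without day 5 the shares were 40.4%, 40.8% and 38.2%. Over all 24 libraries 2 of the 10, Sftpc and Sftpa1, were at or under 3 counts throughout, as were 32.7% of 21867 protein-coding genes. The other 8 members rose above 3 counts in at least 1 library, and 4 of the 10 exceeded 10 counts in one. The epithelial markers Epcam, Cdh1, Krt8, Krt18 and Krt19 rose above the floor in each line in at least 1 library. Epcam was near it in EA2, with 7, 3, 3 and 7 counts with DMSO and 0 in the 4 alectinib libraries (adjusted p = 0.0536, edgeR). Their summed level in EA1 was 4633 to 9252 CPM with DMSO and 3245 to 5367 CPM with alectinib. EA2 had 1811 to 2695 CPM with DMSO and 567 to 1169 CPM with alectinib, and EA3 had 4633 to 6679.9 and 2949.8 to 6655 CPM. In EA2 2 of these 5 fell with alectinib (all tested genes 11.3%) and 1 rose (13%). In EA1 1 fell (14.6%) and 1 rose (19%), and in EA3 1 fell (15.1%) and 1 rose (17.5%).

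**Figure D1:**
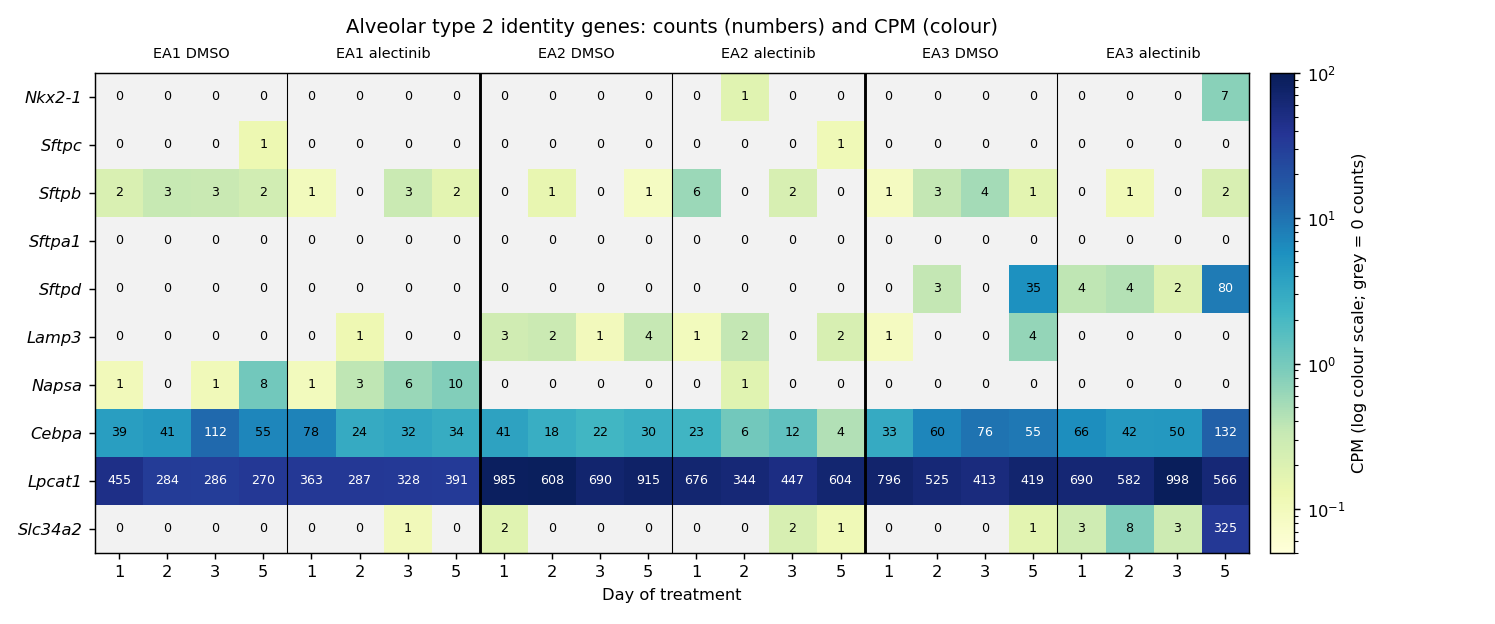
Counts (numbers) and CPM (colour, log scale) of the 10 members in the 24 libraries, with lines and treatments as column blocks and the day of treatment along the x axis. Lpcat1 and Cebpa fill every column, whereas Slc34a2 with 325 counts and Sftpd with 80 stand out in the EA3 alectinib library of day 5.

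Nkx2-1, on chromosome 12 from 56531958 to 56536908 (GENCODE annotation of mm10, as are the positions below), had 0 counts in 22 of 24 libraries. The exceptions were 1 count in EA2 with alectinib on day 2 and 7 counts, or 0.757 CPM, in EA3 with alectinib on day 5. EA3 with DMSO on day 5 had 0 counts, so against a floor of 3 counts in that library Nkx2-1 was at least 1.53-fold higher with alectinib on that day.

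Among the surfactant proteins, Sftpc (chromosome 14, 70520949 to 70524081) had 2 counts in all, 1 in EA1 with DMSO on day 5 and 1 in EA2 with alectinib on day 5. Sftpa1 (chromosome 14, 41131782 to 41136452) had 0 of 221105598 counts over the 24 libraries, which allows up to 0.0135 CPM. Sftpb (chromosome 6, 72304610 to 72314371) had between 0 and 6 counts per library and 38 in all. Its highest value, 6 counts, was in EA2 with alectinib on day 1, with 0 in the DMSO library of that day. These intervals and limits cover counting error only.

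Sftpd (chromosome 14, 41172214 to 41185149) was restricted to EA3 among the libraries sequenced here, with 0 counts in all 8 libraries of EA1 and all 8 of EA2. In EA3 it had 0, 3, 0 and 35 counts with DMSO on days 1, 2, 3 and 5, and 4, 4, 2 and 80 with alectinib. Both day 5 libraries stood above all others, at 5.77 CPM with DMSO and 8.66 CPM with alectinib. The ratio of alectinib to DMSO on day 5 was 1.5 (95% counting interval 0.997 to 2.30), so the difference between treatments on that day was within counting error. Sftpd failed the filter. In a fit without a filter its log2 fold change in EA3 was 1.12 (standard error 0.78, adjusted p = 0.536, edgeR).

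Napsa (chromosome 7, 44572380 to 44586862) was the only member whose counts over 3 all lay in EA1. It had 1, 0, 1 and 8 counts with DMSO on days 1, 2, 3 and 5 and 1, 3, 6 and 10 with alectinib. The groups overlapped, and the ratio on day 5 was 0.810 (95% counting interval 0.288 to 2.36). EA2 had 1 Napsa count in 8 libraries and EA3 had 0. Napsa shares 18.9% of its exon bases with Gm15396 on the opposite strand, and since no source gives the counting strand, reads of the pair cannot be told apart. Lamp3 (chromosome 16, 19653378 to 19706375) reached 4 counts in EA2 and EA3 with DMSO on day 5. Of its 21 counts, 15 were in EA2, 5 in EA3 and 1 in EA1.

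Slc34a2 showed the steepest change of the 10, and in EA3 only. Its counts in EA3 with DMSO were 0, 0, 0 and 1 on days 1, 2, 3 and 5, and with alectinib 3, 8, 3 and 325. The 2 treatments did not overlap. EA1 had 1 count in 8 libraries and EA2 had 5. In CPM, the alectinib libraries of EA3 held 0.277, 0.872, 0.282 and 35.2, so that the level rested on day 5. The ratio on day 5 was 213 (95% counting interval 38.0 to 8456), wide because the DMSO library held 1 count, and on day 2 Slc34a2 was at least 2.49-fold higher against a floor of 3 counts. On days 1 and 3 both libraries were at or under the floor.

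Slc34a2 did not pass the filter, since most of its libraries were at the floor. In the fit without a filter its log2 fold change in EA3 was 7.15 ± 1.06 (standard error) with an adjusted p of 7.26e-10 by edgeR, and the alectinib effect differed between the lines with an adjusted p of 0.0460 by the same test. The fitted value of a gene with so many zeros depends on the prior count and is no bound. With day 5 left out of that fit, the log2 fold change was 5.12 and the adjusted p was 0.160, from 14 counts with alectinib and 0 with DMSO. Counts were higher with alectinib on 4 of 4 days, at or under the floor on 2 of them, and the call rested on the library of day 5.

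**Figure D2:**
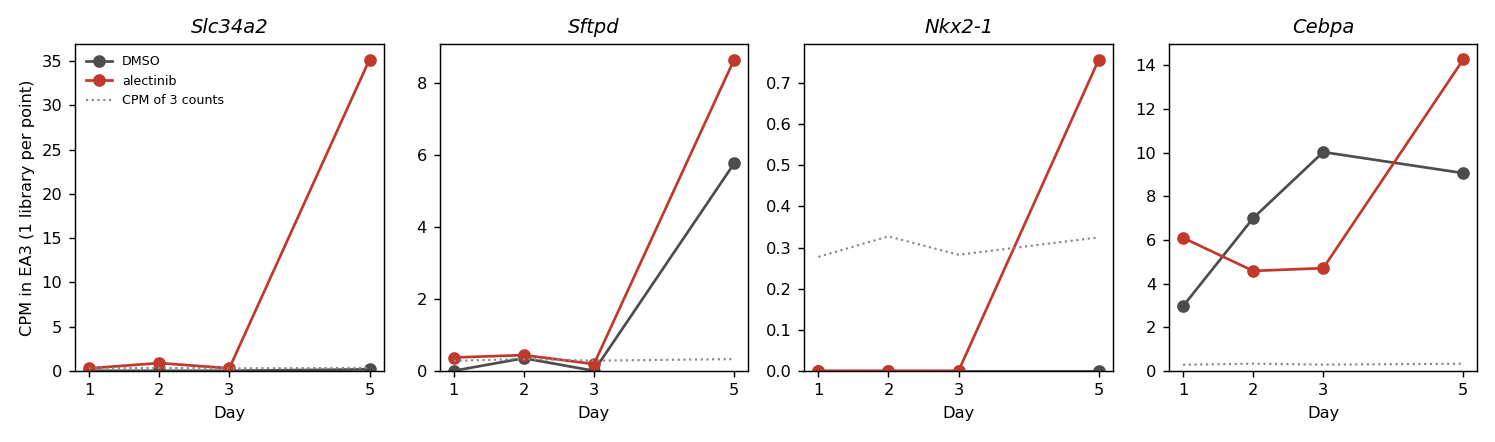
CPM of Slc34a2, Sftpd, Nkx2-1 and Cebpa in EA3 on days 1, 2, 3 and 5 (x axis), with 1 library per point, DMSO in grey, alectinib in red and the CPM of 3 counts as a dotted line; each panel has its own linear y axis. All 4 genes were highest in the alectinib library of day 5, at 35.2, 8.66, 0.757 and 14.3 CPM.

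The alectinib library of EA3 on day 5 stood apart in other genes as well. It held 34 genes with at least 40 counts and at least 4 times the CPM of the next of the 24 libraries, and Slc34a2 was second among them by that ratio, at 40.3. EA3 with DMSO on day 5 held 15 such genes, and each of the other 22 libraries between 0 and 3. The summed level of 7 fibroblast markers was 273.5 CPM in that library, the highest of the 4 alectinib libraries of EA3, of which the lowest had 84.7 CPM. The DMSO libraries of EA3 had 10.2 to 20.2 CPM, and 5 of 6 tested markers rose with alectinib (all tested genes 17.5%). In EA1 the sum reached 478 CPM with alectinib on day 5, where Slc34a2 had 0 counts. Of these markers, Dcn in EA3 had 8, 35, 31 and 447 counts with alectinib on days 1, 2, 3 and 5, and Col3a1 in EA3 had 4, 9, 2 and 223, whereas Lum had at most 1 in that line. The remaining leukocyte marker, Cd68, had 57, 152, 283 and 556 counts with DMSO in EA3 and 85, 104, 224 and 62 with alectinib. These marker genes were named after their values were seen. In the same library Sftpc, Sftpa1 and the club cell marker Scgb1a1 had 0 counts, 5 of 6 leukocyte markers had at most 3 counts in each EA3 library, and the 5 pan-epithelial markers summed to 2949.8 CPM, the lowest of EA3. The part of these shifts in the Slc34a2 and Sftpd values was not tested.

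Without both day 5 libraries of EA3, 7 of the 10 members rose above 3 counts in at least 1 library, in place of 8 of 10, and Nkx2-1 reached at most 1 count. Slc34a2 and Sftpd then reached at most 8 and 4 counts. The share of protein-coding genes at or under 3 counts was 33.4% over these 22 libraries.

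Cebpa, which encodes the C/EBP alpha factor of lung, liver, fat and myeloid cells, lies in 1 exon on chromosome 7 from 35119293 to 35121928 and was detected in all 24 libraries. In EA1 it had 39, 41, 112 and 55 counts with DMSO on days 1, 2, 3 and 5 and 78, 24, 32 and 34 with alectinib. EA2 had 41, 18, 22 and 30 counts with DMSO and 23, 6, 12 and 4 with alectinib. EA3 had 33, 60, 76 and 55 counts with DMSO and 66, 42, 50 and 132 with alectinib. In CPM, the treatments overlapped in EA1 and EA3, and in EA2 the day 1 alectinib library, at 2.27 CPM, lay just above the lowest DMSO library, at 2.21 CPM.

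Mean Cebpa levels were 6.93 ± 3.61 CPM (SD, n = 4 days) with DMSO and 4.16 ± 2.25 CPM with alectinib in EA1. For EA2 they were 2.78 ± 0.626 and 1.28 ± 0.759 CPM, and for EA3 7.26 ± 3.13 and 7.42 ± 4.63 CPM. The log2 fold change was -0.74 ± 0.47 (standard error) in EA1 with an adjusted p of 0.239, -1.21 ± 0.51 in EA2 with 0.106, and -0.0018 ± 0.48 in EA3 with 0.9995 (edgeR). None of the 3 passed the threshold of 0.05. In EA2 the alectinib library was lower on 4 of 4 days, by ratios between 0.174 and 0.619, and without the filter on low counts the call in EA2 was made (log2 fold change -1.20, adjusted p = 0.0309, edgeR). In EA1 the ratio was 1.84 on day 1 and between 0.277 and 0.643 on the later days, and without day 1 the log2 fold change was -1.34 with an adjusted p of 0.0459. In EA3 the ratio was 2.06 on day 1, 0.655 on day 2, 0.469 on day 3 and 1.58 on day 5, with 95% counting intervals that excluded 1 on each day but of opposite sides, so that the days differed among themselves by more than counting error.

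**Figure D3:**
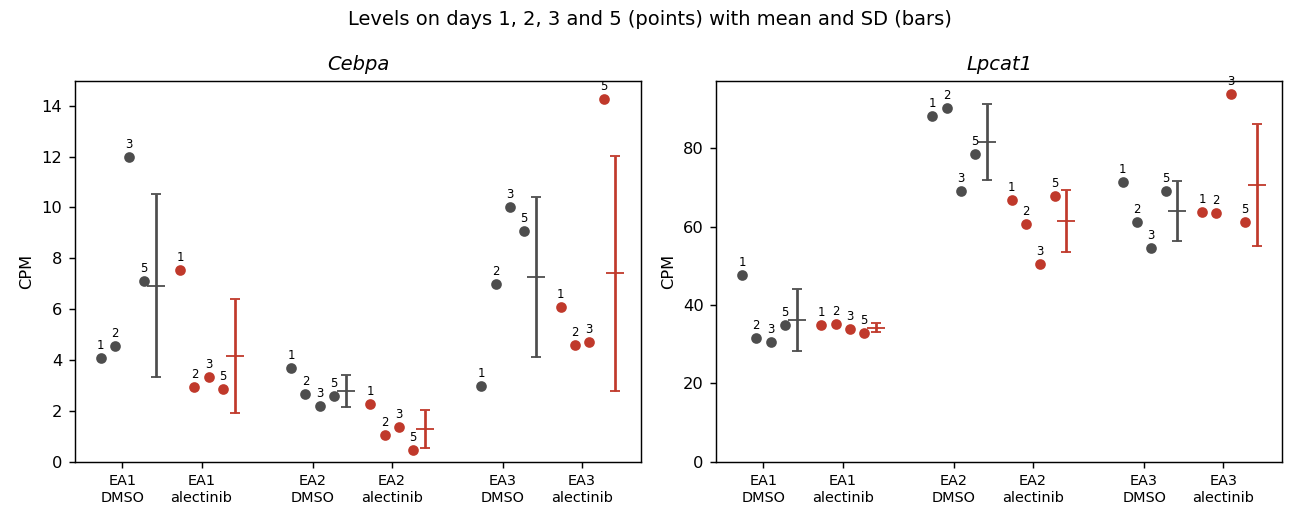
CPM of Cebpa (left) and Lpcat1 (right) by line and treatment, with each library as a point labelled with its day and the mean and SD of the 4 days as a bar; the y axes start at 0. Cebpa was lowest in EA2, with means of 2.78 CPM in DMSO and 1.28 CPM in alectinib, and Lpcat1 was lowest in EA1, with means of 36.2 and 34.2 CPM.

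Lpcat1 (chromosome 13, 73467197 to 73516422) was the one lipid enzyme among the members and the most abundant of them. In EA1 it had 455, 284, 286 and 270 counts with DMSO and 363, 287, 328 and 391 with alectinib. In EA2 the counts were 985, 608, 690 and 915 with DMSO and 676, 344, 447 and 604 with alectinib. EA3 had 796, 525, 413 and 419 counts with DMSO and 690, 582, 998 and 566 with alectinib. In CPM the treatments did not overlap in EA2, where every alectinib library lay below every DMSO library, and overlapped in EA1 and EA3.

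Its mean levels were 36.2 ± 7.83 CPM with DMSO and 34.2 ± 1.11 CPM with alectinib in EA1, 81.6 ± 9.73 and 61.5 ± 7.99 CPM in EA2, and 64.0 ± 7.71 and 70.6 ± 15.6 CPM in EA3 (SD, n = 4 days). Alectinib gave log2 fold changes of -0.06 ± 0.17 (standard error) in EA1 with an adjusted p of 0.810, of -0.41 ± 0.16 in EA2 with 0.0863, and of 0.12 ± 0.16 in EA3 with 0.60 (edgeR). In EA2 the ratio was below 1 on 4 of 4 days, between 0.673 and 0.863, and the change passed the threshold only when EA2 was fitted alone (log2 fold change -0.43, adjusted p = 0.0250). The level of 93.9 CPM in EA3 with alectinib on day 3 lay apart from 61.2 to 63.7 CPM on the other days, and without day 3 the EA3 value was -0.12.

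Per kilobase of exon, Lpcat1 averaged 7.39 to 17.6 CPM over the 6 groups of line and treatment, and Cebpa 0.487 to 2.81 CPM. Among all genes tested, these levels per kilobase were at percentiles between 58.0 and 78.2 for Lpcat1 and between 15.6 and 37.2 for Cebpa. In the same unit, Slc34a2 averaged 1.83 CPM and Sftpd 0.998 CPM in EA3 with alectinib, both resting on day 5.

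Across the 14264 genes tested, 19% were higher and 14.6% lower with alectinib in EA1. The shares were 13% and 11.3% for EA2 and 17.5% and 15.1% for EA3. Beside this, 0 of the 2 tested members passed in each line, and DESeq2's Wald test called 0 as well. At an unadjusted p under 0.05 edgeR had 2 members in EA2 and 0 in the other lines. Without 1 day the called genes numbered as few as 2803 in place of 4791 in EA1 (day 3), 2155 in place of 3475 in EA2 (day 3) and 2835 in place of 4650 in EA3 (day 2). The alectinib effect differed between lines for 6.84% of genes, and for 0 of 2 members, with adjusted p-values of 0.443 for Cebpa and 0.284 for Lpcat1 (edgeR, 2 degrees of freedom), both above 0.05 unadjusted. For Lpcat1 the difference of log2 fold changes between EA3 and EA2 was 0.53 (95% interval 0.03 to 1.03, adjusted p = 0.240), and for Cebpa it was 1.21 (95% interval -0.27 to 2.68, adjusted p = 0.371). The share of 6.84% rests on 976 genes, a number that became 644, 215 and 321 without day 2, 3 or 5, 400 with all 26 libraries, 1955 by DESeq2 and 2698 without the filter. With 2 members tested, nothing is read from these shares about the group.

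Change of the alectinib effect with time was fitted as a slope per doubling of days. Of all genes, 0.021% passed for EA1, 0% for EA2 and 0.0491% for EA3, while 0 of 2 members passed in each line (edgeR). At an unadjusted p under 0.05, there were 1646 genes for EA1, 860 for EA2 and 1876 for EA3, and among the members only Cebpa in EA1, with a slope of -1.06 (standard error 0.47, adjusted p = 0.425).

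The lines differed in their untreated levels of both tested members, as did 40.6% of all genes (edgeR, 12 DMSO libraries, 2 degrees of freedom). The adjusted p was 0.0367 for Cebpa and 0.000990 for Lpcat1. Cebpa was lower in EA2 than in EA1 by a log2 difference of -1.36 (standard error 0.44, adjusted p = 0.0324) and higher in EA3 than in EA2 by 1.40 (standard error 0.44, adjusted p = 0.0322), whereas EA3 and EA1 differed by 0.03 (95% interval -0.89 to 0.95). Lpcat1 was higher in EA2 than in EA1 by 1.13 (standard error 0.19, adjusted p = 0.000495) and in EA3 than in EA1 by 0.81 (standard error 0.19, adjusted p = 0.00699). The difference between EA3 and EA2 was -0.32 (95% interval -0.72 to 0.08, adjusted p = 0.219). In the same pairwise tests 29.6% of genes differed between EA2 and EA1, 21.8% between EA3 and EA1 and 26% between EA3 and EA2. The Cebpa call was lost without day 2 (adjusted p = 0.132), day 3 (0.165) or day 5 (0.177), and with scaling by library size alone (0.0569). Without day 2 or day 5, 3643 and 3700 of all genes differed between the lines in place of 5791.

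Beyond the members, 20 other genes of AT2 cells were examined, of which 11 were tested. Beside each count stands the share of all tested genes with that call. In EA1 4 rose (all genes 19%), 1 fell (14.6%) and 6 did not pass, with a median log2 fold change of 0.97 against 0.06 over all genes tested. In EA2 1 rose (13%), 3 fell (11.3%) and 7 did not pass, with a median of 0.04 against 0.00. In EA3 4 rose (17.5%), 0 fell (15.1%) and 7 did not pass, with a median of 0.49 against 0.07. At most 3 counts in every library of the line were found for 9 of the 20 in EA1, for 8 in EA2 and for 4 in EA3. Markers of other cell types also changed in EA1, where 19% of all tested genes rose and 14.6% fell. Of the fibroblast markers, 5 of 6 tested rose (summed level 9.08 to 44.1 CPM with DMSO and 126 to 478 CPM with alectinib). So did both tested basal cell markers, 1 of 2 ciliated cell markers, 2 of 4 gastric and gut markers and the 1 tested club cell marker. Of 6 tested alveolar type 1 markers, 1 fell and 0 rose in EA1. In EA3, with 17.5% of all tested genes higher and 15.1% lower, 5 of 6 fibroblast markers rose. So did both tested ciliated cell markers (summed level of the list 3.43 to 9.91 CPM with DMSO and 22.2 to 82.0 CPM with alectinib) and 1 of 2 basal cell markers. Of 6 tested markers of alveolar type 1 cells, 2 rose and 2 fell in EA3, and their summed level was 239 to 299 CPM with DMSO and 115 to 126 CPM with alectinib. In EA2, with 13% of all tested genes higher and 11.3% lower, 3 of 6 fibroblast markers and 1 of 2 basal cell markers rose. Foxj1, 1 of 2 tested ciliated cell markers, was called higher as well, but had at most 3 counts in each EA2 library. Of the 6 tested alveolar type 1 markers, 2 fell and 0 rose in EA2. The summed level of their list was 168 to 240 CPM with DMSO and 64.2 to 84.5 CPM with alectinib. The part of these marker shifts in the counts of the other AT2 list was not tested.

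Cxcl15, or lungkine, a chemokine of lung epithelium, had the largest rise of this list in EA1 and EA3. Its counts in EA1 were 2, 7, 3 and 3 with DMSO and 276, 707, 1637 and 2440 with alectinib, or 7.98 ± 0.65 (standard error) on the log2 scale with an adjusted p of 4.99e-06 (edgeR). EA3 had 2, 32, 7 and 42 counts with DMSO and 24, 73, 161 and 1299 with alectinib (log2 fold change 3.19, standard error 0.56, adjusted p = 0.000926). In EA2 the counts stayed between 1 and 37, and the log2 fold change of 2.13 did not pass (adjusted p = 0.0605). The alectinib effect on Cxcl15 differed between the lines (adjusted p = 0.00672, edgeR). In EA1 this rise stood beside at most 1 count of Sftpc and 0 of Sftpa1 in each library.

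Muc1, an apical membrane mucin, fell in EA1 (log2 fold change -1.89, adjusted p = 0.00736) and EA2 (-3.04, adjusted p = 0.000122), from levels of 2.28 ± 1.71 and 6.72 ± 2.20 CPM with DMSO. In EA3 it stood at 171 ± 73.5 CPM with DMSO and 141 ± 56.0 CPM with alectinib and did not pass (-0.29, adjusted p = 0.425, edgeR). The difference between lines passed for Muc1 (adjusted p = 0.0107). Dram1, a lysosomal membrane protein, rose in EA2 by a log2 fold change of 1.47 (adjusted p = 0.00744), in EA1 by 2.82 (adjusted p = 3.22e-05) and in EA3 by 2.4 (adjusted p = 0.000201) by the same edgeR test. Abca3, the lamellar body lipid transporter, was named after its values were seen. It averaged 40.3 ± 11.1 CPM with DMSO and 56.8 ± 5.85 CPM with alectinib in EA1, 6.04 ± 0.640 and 6.40 ± 2.51 CPM in EA2, and 68.5 ± 19.1 and 125 ± 44.9 CPM in EA3, where it passed (log2 fold change 0.85, adjusted p = 0.0169).

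**Figure D4:**
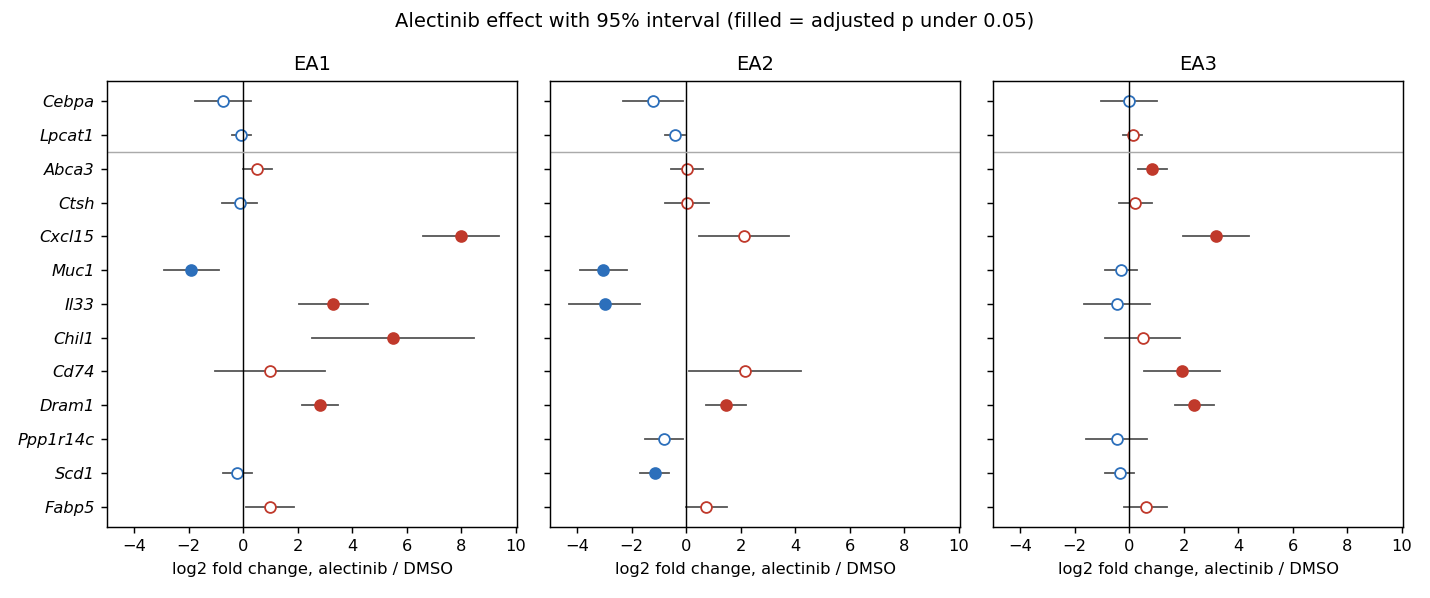
Log2 fold change of alectinib against DMSO (x axis, points) with its 95% interval (lines) for the 2 tested members above the grey rule and the 11 tested genes of the other AT2 list below it, by line; filled points passed an adjusted p of 0.05, and genes with at most 3 counts in every library of a line are left out of its panel. Both members are unfilled in all 3 panels, whereas Cxcl15 reached 7.98 in EA1 and 3.19 in EA3.

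Of 20 regulators of lung epithelium, 18 were tested. In EA1 7 rose (all genes 19%) and 5 fell (14.6%), in EA2 3 rose (13%) and 5 fell (11.3%), and in EA3 5 rose (17.5%) and 7 fell (15.1%). The medians were 0.46, -0.37 and -0.36, against 0.06, 0.00 and 0.07 over all genes tested. Ehf, an epithelial ETS factor, had 0 counts in the 4 DMSO libraries of EA1 and 36, 39, 71 and 201 with alectinib (adjusted p = 2.26e-05). In EA3 it went from 470, 448, 271 and 581 counts to 988, 1043, 400 and 2045 (log2 fold change 0.89, adjusted p = 0.0328). Tfcp2l1, a factor of the grainyhead family, rose most in EA3 (3.82, adjusted p = 3.39e-05) and also rose in EA1 (3.20, adjusted p = 8.11e-05). Fgfr2, a receptor for fibroblast growth factors that acts in AT2 maintenance, had 0 counts in EA2 with DMSO and 1, 4, 6 and 22 with alectinib (adjusted p = 0.000345). It rose in EA1 by 4.53 (adjusted p = 1.71e-05) and in EA3 by 3.03 (adjusted p = 0.000117) as well. The largest falls were those of Etv4 in EA1 (-4.08, adjusted p = 6.98e-06) and of Etv5, which had -6.66 in EA2 and -4.49 in EA3 (adjusted p-values of 1.64e-06 and 5.61e-06), ETS factors induced by receptor kinase signaling (edgeR). Both passed in each line, with Etv4 at -6.59 in EA2 and -4.03 in EA3, and Etv5 at -3.66 in EA1.

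All 24 genes of a list drawn up for surfactant lipid synthesis were tested. The list also holds Sod1, which does not make lipid, and the lipid transporter Abca3. In EA3 Sod1 was among the genes that fell and Abca3 among those that rose. Abca3 and Scd1 are in the list of other AT2 genes as well and count in both. In EA1 4 rose (all genes 19%) and 5 fell (14.6%), in EA2 2 rose (13%) and 7 fell (11.3%), and in EA3 3 rose (17.5%) and 6 fell (15.1%). The medians were -0.02, -0.49 and -0.12 against the same medians of all genes. Lpcat2, a relative of Lpcat1, rose in EA1 from 3, 5, 9 and 9 counts to 24, 23, 28 and 62 (log2 fold change 2.17, adjusted p = 0.00189) and had 0 counts in all 8 EA2 libraries. Chpt1, which joins choline to lipid, rose by 1.15 (adjusted p = 0.0125) in EA2 and by 1.66 (adjusted p = 0.00142) in EA3. It rose in EA1 as well, by 1.16 (adjusted p = 0.00779, edgeR). Chka, the first enzyme of phosphatidylcholine synthesis from choline, fell in EA1 (-1.85, adjusted p = 0.00642), and Insig1, a brake on sterol-regulated lipid synthesis, had -1.77 (adjusted p = 0.00841) in EA2 and -1.78 (adjusted p = 0.00796) in EA3 by the same edgeR test.

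Over the 24 libraries, the tested genes whose log2 CPM followed Cebpa most closely were Platr16 (Pearson r = 0.874), Itga2 (0.872) and Camk2n1 (0.865). Those closest to Lpcat1 were Dnaaf3 (0.919), Bdh1 (0.905) and Slc25a13 (0.903). Libraries of a line share its baseline level, which these values carry. Within single lines, r ran from 0.46 to 0.89 for the Cebpa set and from -0.16 to 0.96 for the Lpcat1 set.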

How the data were processed

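RNA of 26 cultures was sequenced (TruSeq stranded mRNA). With STAR and mm10, the authors obtained and deposited raw gene counts that are not normalized. The annotation release, tool versions and strand column are not given in the sources used here. Another 24 rows hold dates in place of symbols (0.129% to 0.201% of a library) and were left out.

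The analysis used edgeR 4.0.16 under R 4.3.3. TMM factors and filterByExpr were followed by the quasi-likelihood test on 24 libraries with 12 blocks of line and day and an alectinib effect per line, with Benjamini-Hochberg adjustment over 14264 genes and a threshold of 0.05. The day comes from the labels and was kept as the replicate block; deviations of the paired libraries from their group means correlated between -0.300 and 0.549. The fit was also run on counts simulated without differences between days. Such a run cannot show how the fit behaves where days differ. Ratios of single days carry exact binomial intervals. Members, gene lists and tests were chosen with earlier results of these data known. Genes named were the members, for each list the largest rise and fall per line past the threshold, and the 3 genes most correlated with a tested member (log2 CPM, prior count 2). Any other gene, including the cell type markers and Abca3, was named after its values were seen. Alternatives were DESeq2 1.42.0, other normalizations and filters, no block, lines fitted alone, all 26 libraries and each day left out. Other floors, the floor counts without a day and the Slc34a2 fit without day 5 were added after seeing the data.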

Additional observations from a re-analysis of the deposited data

Results flagged for a closer look

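Among 22 named genes, 16 of 87 groups of 4 days held a library far from the other 3 by Dixon's criterion. Chance gives about 1 of 20 for normally distributed values, and the rate for counts near the floor or for days in order was not measured. With 1 library per day, a day and its library cannot be told apart. In EA3 with alectinib on day 5, Slc34a2 stood at 35.2 CPM, Sftpd at 8.66, Nkx2-1 at 0.757, Cebpa at 14.3, Cxcl15 at 140.6 and Fgfr2 at 34.3 CPM, each the highest of its group. In EA3 with DMSO on day 5, Sftpd stood at 5.77 CPM and Lamp3 at 0.659 CPM, the latter from 4 counts. In EA3 with alectinib on day 3, Lpcat1 stood at 93.9 CPM and Chka at 195 CPM, both above the other days, and with DMSO on day 1 Tfcp2l1 stood at 11.4 CPM. In EA1, Napsa stood at 1.03 CPM with DMSO on day 5, Cebpa at 7.53 CPM with alectinib on day 1 and Fgfr2 at 0.214 CPM with DMSO on day 3, the last below the others. In EA2, Cxcl15 stood at 4.17 CPM with alectinib on day 3, and Muc1 at 3.44 CPM with DMSO on day 5 lay below the others.

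Lines differed in their alectinib response for Cxcl15 (adjusted p = 0.00672), Muc1 (0.0107), Ehf (0.00183), Etv4 (0.0161) and Etv5 (0.0119) in edgeR. Neither Cebpa nor Lpcat1 passed this test.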

How the results depend on the processing

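The 4 days are the replicates, so leaving out a replicate leaves out a day. Leaving out each day in turn gave 2803 to 4058 genes called with alectinib in EA1 (lowest without day 3), 2155 to 2650 in EA2 (lowest without day 3) and 2835 to 3900 in EA3 (lowest without day 2), 215 to 812 genes whose effect differed between lines (lowest without day 3) and 3643 to 4712 that differed between lines in DMSO (lowest without day 2). The members at the floor throughout a line numbered 7 in EA1 under each of these, 6 to 7 in EA2 and 3 to 5 in EA3 (highest without day 5). Of the members, 0 to 1 were called in EA1 and 1 to 2 in DMSO between lines. Lpcat1 moved between -0.20 and 0.0095 in EA1 and between -0.12 and 0.22 in EA3, and Cebpa in EA3 between -0.36 and 0.34, none of them called. With library size alone Lpcat1 in EA1 was 0.031, Cebpa in EA3 was 0.11, and 1 member was called in DMSO. Without the replicate block of line and day Cebpa in EA3 was 0.036, with no member's call changed. Without the filter on low counts 1 member was called in EA2 (Cebpa), 1 in EA3 (Slc34a2) and 1 between lines (Slc34a2), and 2698 genes differed between lines. With EA2 fitted alone 1 member (Lpcat1) was called. DESeq2 gave 1955 genes that differed between lines, and all 26 libraries gave 400. With at least 10 counts in every library, where Cebpa is not tested, 3003 genes and 1 member differed in DMSO. With more than 10 counts as the floor, 4 members exceeded it in place of 8. The causes were not tested. For the 8 members that were not tested, day ratios rest on few counts and have wide intervals.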

Other observations

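Both libraries labelled EA3 day 7 were in no comparison except the alternative with all 26 libraries, since their profiles were closer to EA2. Of the members, Sftpd, Slc34a2, Nkx2-1, Sftpc, Sftpa1, Lamp3 and Napsa had 0 counts in both. Sftpb had 2 counts with DMSO and 5 with alectinib, Cebpa 29 and 8, and Lpcat1 321 and 640.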
